A study of Mus musculus with 6 samples.

Results

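The 6 casein kinase 1 genes of the mouse, Csnk1d, Csnk1e, Csnk1a1, Csnk1g1, Csnk1g2 and Csnk1g3, were described in chronic lymphocytic leukaemia (CLL) cells, as the 6 rows with these symbols among the 54232 genes of the deposited count table. The cells were sorted from spleens of wild-type C57BL/6J mice that carried a transferred Eµ-TCL1 leukaemia. In the Eµ-TCL1 donor strain the TCL1 oncogene is driven in B cells by an immunoglobulin enhancer, and terminally ill donors supplied the mononuclear cells that were injected into the peritoneum of the recipients. Recipients of the CK1i group (3 libraries) received oral PF-670462, a small molecule that blocks the delta and epsilon forms of casein kinase 1, at 50 mg/kg in a vehicle of PBS with 10% kolliphor. Recipients of the CTRL group (3 libraries) received the vehicle, PBS with 10% kolliphor, alone. Dosing began 5 days after cell transfer, followed a rhythm of 5 days on and 2 days off and lasted 8 weeks in all. Both groups thus share a transferred Eµ-TCL1 leukaemia, the host strain and the vehicle. Which donor supplied which recipient is not given in the labels. The hosts kept their own lymphocytes, and the time between the last dose and the collection of the cells is not stated in the labels.

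Casein kinase 1 enzymes are monomeric serine and threonine kinases that are largely active without an upstream switch. Delta and epsilon phosphorylate the PER proteins and so set the speed of the circadian clock, and they phosphorylate Dishevelled in Wnt signalling. Alpha primes beta-catenin for destruction and restrains p53 together with MDM4. The gamma enzymes are anchored to membranes by lipid and phosphorylate Wnt co-receptors there. The inhibitor competes with ATP for the kinase pocket, so its direct effect is on enzyme activity, which transcript counts do not measure.

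The delta and epsilon genes are the pair of the family named in the title of the series, and their coding sequences are shown here to describe their likeness. Libraries of this kind read each message near its 3' end, so the reads need not cover the stretch shown. The stretch below, from the GENCODE M21 transcripts (GRCm38), is written in the sense of the message, 5′ to 3′, and covers coding bases 385 to 474, counted from the first base of the start codon, and includes the codons of the metal-binding motif of the kinase domain at coding bases 445 to 453. Capitals mark the 9 of 90 bases at which the 2 messages differ.
Csnk1d: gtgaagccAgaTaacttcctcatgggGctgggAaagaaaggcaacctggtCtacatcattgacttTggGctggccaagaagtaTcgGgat
Csnk1e: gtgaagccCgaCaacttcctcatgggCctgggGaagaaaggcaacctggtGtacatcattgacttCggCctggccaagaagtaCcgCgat
All 30 codons of this stretch encode the same amino acid in both genes. Over the whole coding sequence, 77.4% of the 1227 aligned bases of Csnk1d and Csnk1e were identical, and 85.1% of the aligned codons encoded the same amino acid. Csnk1d and Csnk1a1 shared 65.7% of encoded amino acids, and Csnk1d and Csnk1g2 51.1%. Within the gamma group the shares were 79.1% for Csnk1g1 and Csnk1g2, 78.8% for Csnk1g1 and Csnk1g3 and 85.6% for Csnk1g2 and Csnk1g3. In spite of this likeness, no stretch of 75 bases, the read length, was shared between transcripts of different members, and the longest run of identical coding bases in Csnk1d and Csnk1e was 23. Outside the family, Csnk1g3 shared 303 windows of this length with Gm14584, a gene model with a total of 1 count. Csnk1e shared 120 windows with the antisense model Gm16059, which had 0 counts in all 6 libraries.

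On GRCm38, Csnk1d (ENSMUSG00000025162) lies on chromosome 11 from 120961749 to 120991330 on the minus strand, and Csnk1e (ENSMUSG00000022433) on chromosome 15 from 79417856 to 79455566 on the minus strand. Csnk1a1 (ENSMUSG00000024576) spans 61555274 to 61590061 and Csnk1g3 (ENSMUSG00000073563) 53862122 to 53955548 on the plus strand of chromosome 18. Csnk1g1 (ENSMUSG00000032384) is on the plus strand of chromosome 9 from 65908924 to 66045015, and Csnk1g2 (ENSMUSG00000003345) on the plus strand of chromosome 10 from 80622838 to 80640749. Csnk1d, Csnk1e and Csnk1g1 each overlap an annotated gene on the opposite strand, and these overlapping genes (Gm28192, Gm16059 and Gm22657) had 0 counts.

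The libraries held 2472064 to 3105137 counts, which makes a single count equal to between 0.322 and 0.405 CPM (counts per library, rescaled to the same total), and the family as a whole received 2216 to 3073 counts in a library. Since the labels name no mouse for a library, p-values measure only the spread between these samples, which may be technical. On the first principal component of log2 CPM (28% of the variance), CTRL replicate 1 stood apart at 31.4, while the other 5 libraries lay between -12.4 and 4.68 (replicate numbers follow the order of deposit, name a library and pair none). Without this library, Csnk1g3, Per2, Csnk2b and the median of the clock genes, among others, moved by more than 1.5 times. The values of those named are given beside their main values, and not all of the others are given. All 9 B-cell and CLL markers were detected, with a summed level of 16200 to 21070 CPM in CK1i and 18310 to 21830 CPM in CTRL. Most of this sum was Ighm, with 10490 to 16190 CPM over all libraries, while Cd5 had 25.9 to 34.3 CPM. The markers of T cells summed to 1.96 to 18.5 CPM in CK1i and 4.39 to 11.0 CPM in CTRL. Those of monocytes and macrophages summed to 4.57 to 10.2 and 4.34 to 6.39 CPM, with Cd14 and Fcgr1 at 0. NK cell, neutrophil, erythroid and platelet markers summed to at most 5.59 CPM in any library, with Ncr1, Ly6g, Elane, Mpo, Pf4 and Gp9 among those at 0. Libraries of this kind read each message near its 3' end, so a count stands for a transcript and is not divided by length, but capture differs between genes. Cd79a, which pairs with Cd79b in the B-cell receptor, had 8.88 to 17.6 CPM where Cd79b had 663 to 756 CPM (both named after their values were seen). Levels of different genes are therefore compared as counted, with the order per kilobase of transcript given beside them.

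All 6 members were detected in every library and all 6 passed the filter on low counts. In RNA from many cells together, fewer cells that express a gene and less of its RNA per cell cannot be told apart. Csnk1a1, the alpha gene, had the most counts of the family in every library. Its levels were 535, 457 and 439.5 CPM in the 3 CK1i libraries, by replicate number, and 469, 466 and 486 CPM in the CTRL libraries, which placed it at rank 240 of the 10067 genes tested. Csnk1d, the delta gene, had 139, 134 and 142 CPM under the inhibitor and 143, 148 and 174 CPM in controls, in the same order of replicates, and ranked 1362. The highest library was CTRL replicate 3, and the CK1i libraries differed from each other by only a few CPM. Csnk1e, the epsilon gene, had 59.2, 51.5 and 42.1 CPM in CK1i and 59.3, 49.1 and 79.8 CPM in CTRL, and ranked 3647. CTRL replicate 3 was again the highest library, and the CPM ranges of the groups overlapped.

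The 3 gamma genes lay between these levels or at their lower end. Csnk1g2 had 136.9, 112 and 127 CPM in CK1i and 109, 131 and 122 CPM in CTRL. Csnk1g3 had 93.8, 89.7 and 81.8 CPM in CK1i and 99.0, 81.4 and 68.4 CPM in CTRL, where CTRL replicate 3 was the lowest library. Csnk1g1 had 47.1, 45.3 and 56.95 CPM in CK1i and 59.6, 41.9 and 56.4 CPM in CTRL. For each of the gamma genes the libraries of the groups were interleaved. Over all 6 libraries the mean levels (SD, n = 6) were 475.6 ± 33.0 CPM for Csnk1a1, 146.6 ± 14.3 for Csnk1d, 122.8 ± 11.0 for Csnk1g2, 85.7 ± 10.9 for Csnk1g3, 56.8 ± 13.0 for Csnk1e and 51.2 ± 7.34 for Csnk1g1.

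**Figure D1:**
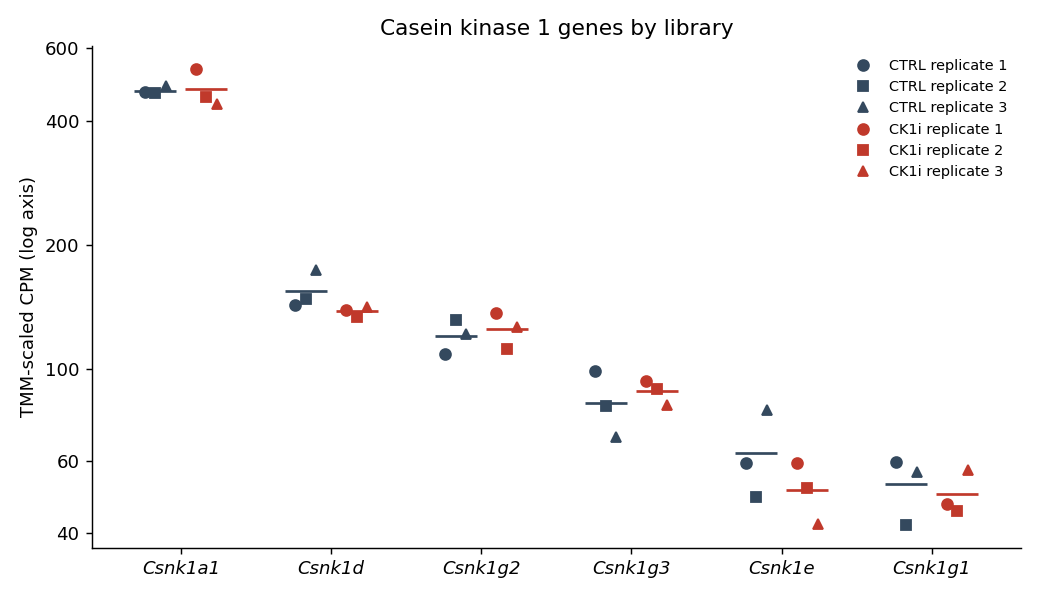
Level of each casein kinase 1 gene in each library, in TMM-scaled CPM on a log axis, with CTRL in blue-grey and CK1i in red, 1 symbol per replicate and a line at each group mean. Csnk1a1 lies above all other members in every library, and CTRL replicate 3 is the highest library for Csnk1d and Csnk1e and the lowest for Csnk1g3.

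The order Csnk1a1, Csnk1d, Csnk1g2 from the top was the same in all 6 libraries, while the lower members changed places. Csnk1a1 exceeded Csnk1d by 1.70 ± 0.16 on the log2 CPM scale (SD, n = 6), a 3.24-fold higher level, with a smallest difference of 1.48. Csnk1d exceeded Csnk1g2 by 0.25 ± 0.18 and Csnk1g2 exceeded Csnk1g3 by 0.52 ± 0.25 on that scale, each in 6 of 6 libraries. These 3 pairs gave an exact two-sided sign-flip permutation p of 0.0312, the smallest possible with 6 libraries, and an adjusted p of 0.0521 over the 5 neighbouring pairs. The pairs were chosen by the mean levels in these same 6 libraries, CK1i and CTRL pooled. The p-values of the order therefore describe how steady each step was and are not independent support for it. Csnk1g3 lay above Csnk1e by 0.61 ± 0.42 in 5 of 6 libraries (exact permutation p = 0.0625, adjusted p = 0.0781), the exception being CTRL replicate 3. Csnk1e and Csnk1g1 did not differ beyond their spread: the difference was 0.13 ± 0.32, with Csnk1e higher in 4 of 6 libraries (exact permutation p = 0.375, adjusted p = 0.375). Per kilobase of the longest annotated transcript the order of the means was the same, and the step from Csnk1e to Csnk1g1, whose longest transcript has 7208 bases, became 1.32 on the log2 scale (adjusted exact permutation p = 0.0391). On that scale the step from Csnk1g3 to Csnk1e shrank from 0.61 to 0.18 (adjusted exact permutation p = 0.3438), so the size of this step depends on how length is treated. Division by length shifts a pair by the same amount in all 6 libraries, so both of these p-values rest on the annotated lengths.

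As a share of the summed family counts, Csnk1a1 made up 50.6% ± 1.38 (SD, n = 6), Csnk1d 15.6% ± 1.31, Csnk1g2 13.1% ± 1.11, Csnk1g3 9.15% ± 1.25, Csnk1e 6.02% ± 1.14 and Csnk1g1 5.47% ± 0.82. The alpha gene thus had from 49.3% to 52.95% of the counts in every library, whatever the group. The gamma genes together had 28.4% ± 1.31 in CK1i and 27.1% ± 1.85 in CTRL (SD, n = 3). Delta and epsilon together had 19.6%, 20.9% and 20.7% of the counts in the CK1i libraries, by replicate number, and 21.5%, 21.5% and 25.7% in the CTRL libraries. The 95% Wilson interval of CTRL replicate 3, 24.2% to 27.4%, lay above the intervals of the other 5 libraries, the highest of which ended at 23.2%. All CK1i shares lay below all CTRL shares, by a margin smaller than these intervals, which cover counting error only. The share is given without a test. The summed CPM of delta and epsilon overlapped between the groups, with 198.1 CPM in CK1i replicate 1 and 197.2 CPM in CTRL replicate 2. The summed level of the family was 930 ± 70.4 CPM (SD, n = 3) under the inhibitor and 948 ± 35.3 CPM in controls, with overlapping groups.

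**Figure D2:**
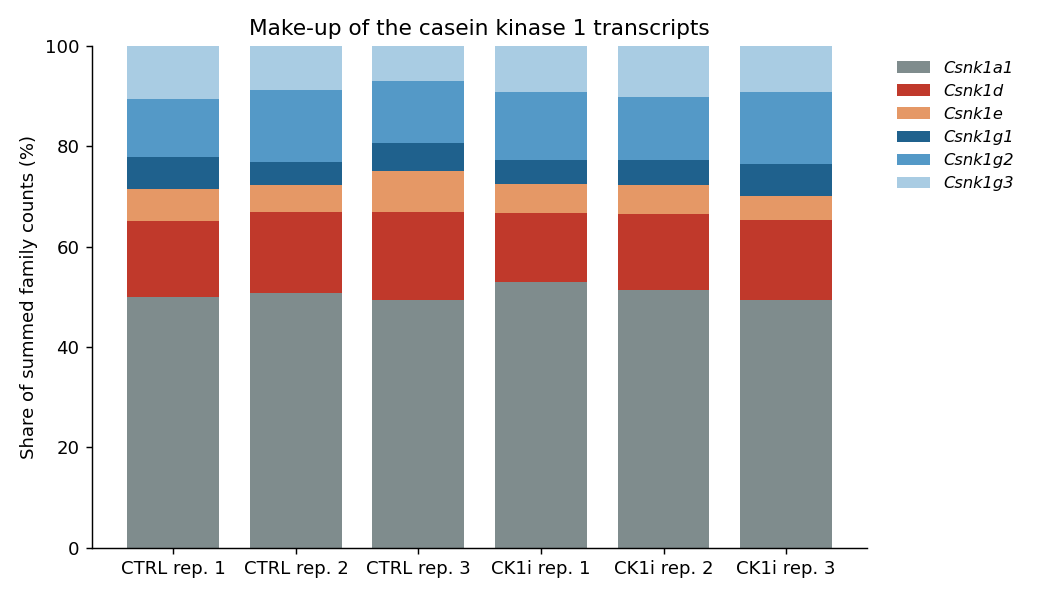
Share of each member in the summed counts of the 6 casein kinase 1 genes, in percent, with 1 stacked bar per library. Csnk1a1 takes 49.3% to 52.95% in every library, and the delta and epsilon segments are widest in CTRL replicate 3, at 25.7% together.

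Csnk1d had more counts than Csnk1e in every library. Capture differs between genes, so a ratio of counts need not be a ratio of messages. The ratio of counts was 2.34, 2.60 and 3.36 in the CK1i libraries, by replicate number, and 2.41, 3.02 and 2.18 in the CTRL libraries, and the 95% interval, transformed from the Wilson interval of the share, lay above 1 in all 6 libraries (lowest bound 1.87, in CTRL replicate 3). The ratio needs no scaling between libraries. Its log2 value was 1.45 ± 0.27 in CK1i and 1.33 ± 0.24 in CTRL (SD, n = 3), a difference of 0.12 that was smaller than the spread within either group (exact two-sided permutation p = 0.6, where the smallest possible p is 0.1). The library values were interleaved, so a different response of the 2 genes was not detectable with 3 libraries a group.

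**Figure D3:**
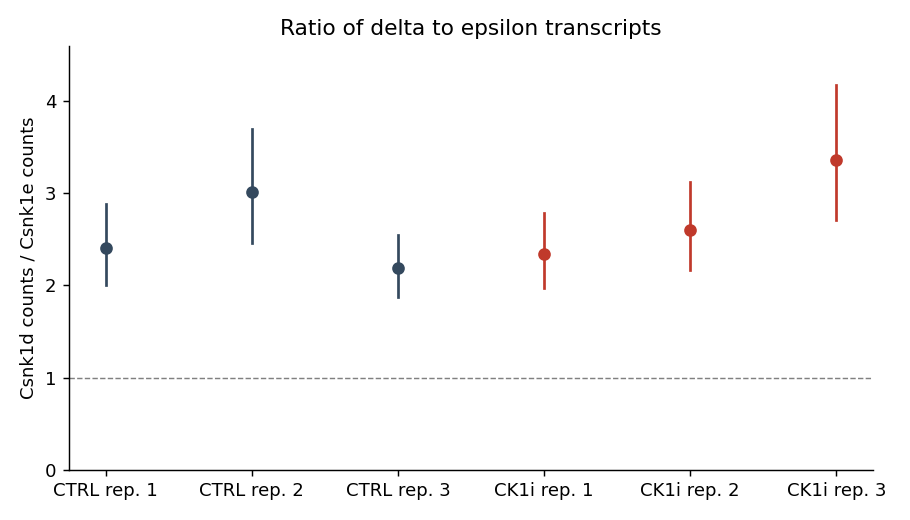
Ratio of Csnk1d to Csnk1e counts in each library, with 95% intervals from counting error and a dashed line at 1, CTRL in blue-grey and CK1i in red. All 6 ratios, from 2.18 to 3.36, lie above 1, and the groups are interleaved.

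The comparison of CK1i with CTRL asks whether expression of the kinases differed between leukaemia cells of treated and control recipients. Kinase activity in the collected cells was not measured here. None of the 6 members passed the threshold of an adjusted p under 0.05 in edgeR's quasi-likelihood test, which called 0% of the 10067 genes tested, and none had an unadjusted p under 0.05, which 4.7% of all genes had. The transcripts of both kinases that the inhibitor targets had lower mean levels in CK1i. The mean of Csnk1d was 138 ± 3.80 CPM (SD, n = 3) under the inhibitor and 155 ± 16.9 CPM in controls, which gave a log2 fold change of -0.17 ± 0.14 (SE; edgeR unadjusted p = 0.241, adjusted p = 0.999). Csnk1e had 51.0 ± 8.57 and 62.7 ± 15.6 CPM, a log2 fold change of -0.30 ± 0.19 (SE; edgeR unadjusted p = 0.144, adjusted p = 0.999). Expressed as ratios, the 95% intervals ran from 0.728 to 1.09 for Csnk1d and from 0.609 to 1.08 for Csnk1e. With all 6 libraries, the upper bounds thus lay no higher than a 1.09-fold rise, and the lower bound for Csnk1e at 0.609 of its control level. These bounds are not firm limits, since they depend on single libraries. Without CTRL replicate 3 the log2 fold changes were -0.07 ± 0.145 for Csnk1d and -0.09 ± 0.189 for Csnk1e (SE).

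For Csnk1d all 3 CK1i libraries lay below all 3 CTRL libraries, the only member for which the groups did not overlap (9.7% of all genes tested showed such a separation in either direction). The gap was narrow, from 142 CPM in the highest CK1i library to 143 CPM in the lowest CTRL library. It held with DESeq2 size factors and closed when counts were scaled by library totals alone, where CK1i reached 142.8 CPM and CTRL began at 140.6 CPM. Counting error alone gives Csnk1d a coefficient of variation of about 5.04% in CK1i, and the libraries varied by 2.75%, less than counting error alone. In CTRL the variation was 10.9% against 4.86% from counting. For Csnk1e the variation was 16.8% in CK1i and 24.9% in CTRL, against 8.45% and 7.81% from counting.

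The alpha and gamma members had log2 fold changes between -0.09 and 0.09; whether they differed from those of Csnk1d and Csnk1e was not tested. Csnk1a1 averaged 477 ± 51.0 CPM (SD, n = 3) under the inhibitor and 474 ± 10.9 CPM in controls, a ratio of 1.01 with a 95% interval from 0.8198 to 1.24. Its log2 fold change was 0.01 ± 0.14 (SE; edgeR adjusted p = 1). The log2 fold changes of the gamma genes were -0.09 ± 0.17 for Csnk1g1, 0.06 ± 0.14 for Csnk1g2 and 0.09 ± 0.16 for Csnk1g3 (SE), with edgeR adjusted p of 0.999, 1 and 0.999. Their ratios had 95% intervals of 0.727 to 1.22, 0.842 to 1.28 and 0.844 to 1.35. With a library left out, Csnk1g1 reached -0.23 without CTRL replicate 2 and Csnk1g3 0.24 without CTRL replicate 1, both larger in size than the value of Csnk1d with all libraries. Csnk1g3 was -0.03 without CTRL replicate 3. The median log2 fold change of the 6 members was -0.04, beside -0.01 over all genes tested, of which 51.2% had lower values in CK1i.

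**Figure D4:**
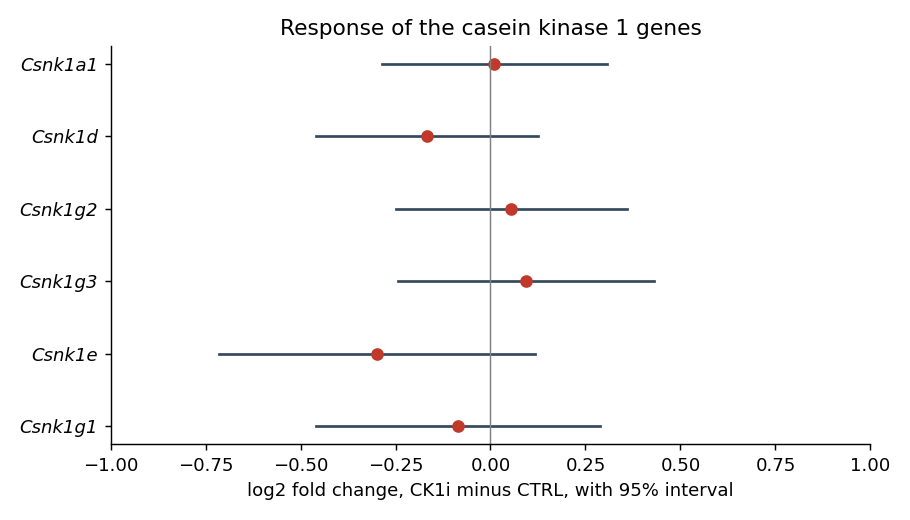
Log2 fold change of each member, CK1i minus CTRL, from edgeR, as points with 95% intervals. The points of Csnk1d (-0.17) and Csnk1e (-0.30) lie below 0, and the intervals of all 6 members include 0.

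The size of the delta and epsilon estimates rested on CTRL replicate 3. Without it, the log2 fold change was -0.07 for Csnk1d and -0.09 for Csnk1e. Without CTRL replicate 1, the library apart on the first component, the values were -0.23 and -0.34. The lowest value for Csnk1e was -0.45, without CTRL replicate 2 (edgeR unadjusted p = 0.0383, adjusted p = 0.707), and -0.42 was reached without CK1i replicate 1, while -0.19 remained without CK1i replicate 3. For Csnk1d the other values were -0.21 without CTRL replicate 2 and between -0.19 and -0.15 with a CK1i library left out. No edgeR adjusted p of Csnk1d or Csnk1e fell below 0.707 with a library left out.

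**Figure D5:**
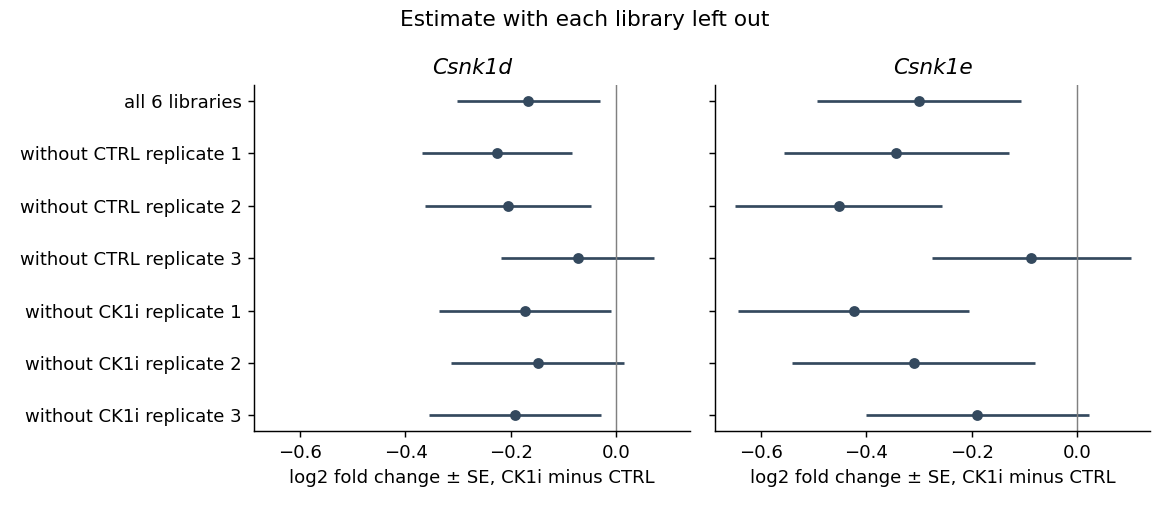
Log2 fold change of Csnk1d and Csnk1e, CK1i minus CTRL, with all 6 libraries and with each library left out in turn, as points with the standard error. All values stay below 0, and both genes come closest to 0 without CTRL replicate 3 (-0.07 and -0.09).

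Relatives of the family and other kinases with related roles were set beside the members. Of 5 genes of the wider casein kinase 1 group, 3 could be tested and 0 passed the threshold in either direction. Vrk1, a kinase of chromatin and nuclear envelope assembly, averaged 93.9 ± 9.94 CPM (SD, n = 3) under the inhibitor and 88.2 ± 4.78 CPM in controls, and Vrk3 61.3 ± 8.22 and 61.6 ± 7.49 CPM. The tau tubulin kinases Ttbk1 and Ttbk2, with 2 and 32 counts in all, were too low to test. Of the 5 genes of casein kinase 2 and GSK3, 4 had lower values, 1 had a higher value and 0 passed. Csnk2a1, the main catalytic subunit of casein kinase 2, had 145 ± 5.65 and 165 ± 29.1 CPM, and its regulatory subunit Csnk2b 55.5 ± 5.51 and 65.3 ± 16.2 CPM. The log2 fold change of Csnk2b was -0.23 with all libraries and -0.42 without CTRL replicate 1 (edgeR unadjusted p = 0.0189, adjusted p = 0.831). The median of the 5 genes was -0.12 with all libraries and -0.24 without CTRL replicate 1. The Csnk2a1 level lay close to that of Csnk1d in CPM.

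Anchors and regulators of casein kinase 1 showed no gene past the threshold in either direction, with 9 of 12 tested members higher and 3 lower in CK1i (median log2 fold change 0.07, beside -0.01 over all genes tested). Prkaca, the catalytic subunit of protein kinase A, had 33.9, 40.8 and 30.9 CPM in CK1i and 27.3, 28.3 and 30.7 CPM in CTRL. Its groups were apart, by a margin of a fraction of a CPM, and its log2 fold change was 0.29 ± 0.18 (SE; edgeR adjusted p = 0.999), or 0.17 without CK1i replicate 2, the highest library. Prkaca alone of the 12 tested genes had groups apart, beside 9.7% of all genes tested in either direction. Ppp1cb, a catalytic subunit of protein phosphatase 1, had 249.8 ± 26.5 and 212 ± 34.0 CPM (SD, n = 3). Ddx3x, an RNA helicase that activates casein kinase 1 in Wnt signalling, was the most abundant of the list, with 619 ± 178 and 627 ± 89.9 CPM. The FAM83 proteins tether casein kinase 1 to sites in the cell. Of their genes, Fam83d and Fam83g passed the filter on low counts and were tested. Fam83e and Fam83h, with 12 and 4 counts in all, were too low to test. Fam83a, Fam83b, Fam83c and Fam83f had no read in any library (0 counts, a level of at most 0.176 CPM by library totals). Ppp1ca, a phosphatase gene in wide use among cells and named after its values were seen, had only 6 counts in all, so a count near 0 in this table does not by itself show that a gene is silent.

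Among the substrates in the circadian clock, where delta and epsilon act on the PER proteins, 9 of 12 tested genes had lower and 3 higher values in CK1i, and 0 passed the threshold in either direction (median log2 fold change -0.298, or -0.19 without CTRL replicate 1, beside -0.01 over all genes tested). Per2, a PER repressor, had 7.90, 7.18 and 8.42 CPM in CK1i and 15.3, 10.4 and 9.68 CPM in CTRL, so its groups were apart, with a log2 fold change of -0.59 ± 0.28 (SE; edgeR unadjusted p = 0.0542, adjusted p = 0.999). Without CTRL replicate 1, the highest library, it was -0.36 (edgeR unadjusted p = 0.252, adjusted p = 0.911). Per2 alone of the 12 tested genes had groups apart, beside 9.7% of all genes tested in either direction. Cry1, the partner of PER in repression, had 25.8 ± 5.75 and 34.4 ± 5.58 CPM (SD, n = 3), with overlapping groups. Its log2 fold change was -0.41 with all libraries. With a library left out it ran from -0.61 without CK1i replicate 1 (edgeR unadjusted p = 0.0163, adjusted p = 0.824) to -0.28 without CTRL replicate 1. Per1, the most abundant of the list, had 117, 31.0 and 33.7 CPM in CK1i and 114, 45.1 and 119 CPM in CTRL. Its high and low libraries occurred in both groups. The log2 fold change of Per1 was -0.61 ± 0.72 (SE, edgeR adjusted p = 0.999). It was -1.53 without CK1i replicate 1 (edgeR unadjusted p = 0.00639, adjusted p = 0.643) and -0.30 without CK1i replicate 2.

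In the Wnt pathway, where Dishevelled is phosphorylated by delta and epsilon and beta-catenin by alpha, 5 of 9 tested genes had higher and 4 lower values, with 0 past the threshold in either direction (median log2 fold change 0.08). Dvl2 had 25.3, 35.6 and 30.5 CPM in CK1i and 40.1, 42.3 and 44.7 CPM in CTRL, a log2 fold change of -0.48 ± 0.18 (SE; edgeR unadjusted p = 0.0172, adjusted p = 0.943). Dvl1 had 65.5, 75.03 and 81.4 CPM in CK1i and 99.0, 85.8 and 102.8 CPM in CTRL, a log2 fold change of -0.38 ± 0.15 (SE; edgeR unadjusted p = 0.0218, adjusted p = 0.987). For Dvl2 and Dvl1, named for the smallest p of the list, all CK1i libraries lay below all CTRL libraries. Such a separation in that direction held for 4.48% of all genes tested. Of the 9 tested genes of the list, these 2 alone had groups that did not overlap. Dvl3, the remaining Dishevelled gene, was tested and its groups overlapped. Ctnnb1, which encodes beta-catenin, had 398 ± 34.3 and 409 ± 45.4 CPM (SD, n = 3). Vangl2, a planar polarity gene named after its values were seen, was too low to test, and 18 of its 32 counts came from CK1i replicate 3.

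Of the other substrates and complexes, which include NFAT factors and p53 regulators, 9 of 16 tested genes had higher and 7 lower values, and 0 passed the threshold in either direction (median log2 fold change 0.03). Mdm4, the p53 inhibitor that binds casein kinase 1 alpha, had 546, 673 and 744 CPM in CK1i and 852, 790.0 and 828 CPM in CTRL, a log2 fold change of -0.33 ± 0.15 (SE; edgeR unadjusted p = 0.0459, adjusted p = 0.999). All CK1i libraries of Mdm4 lay below the CTRL libraries, and the log2 fold change was -0.22 without CK1i replicate 1, the lowest library. Mdm4 alone of the 16 tested genes had groups apart, beside 9.7% of all genes tested in either direction. Ltv1, a ribosome assembly factor released from the small subunit by casein kinase 1 delta and epsilon, had 73.4 ± 15.7 and 86.3 ± 3.97 CPM (SD, n = 3). Nfatc1, an NFAT transcription factor, had the highest level of the list, 1087 ± 40.6 and 1161 ± 159.9 CPM.

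The genes whose log2 CPM over the 6 libraries ran most like that of Csnk1d, among 6505 genes with a mean of at least 20 CPM, were Epn2 (Pearson r = 0.982, Spearman rho = 0.943), Adrm1b (0.973 and 0.771) and Mrpl19 (0.972 and 0.943). Those most like Csnk1e were Pigbos1 (Pearson r = 0.989, Spearman rho = 0.943), Tpm3-rs7 (0.983 and 0.943) and Gapvd1 (0.976 and 0.943). These are the extremes of a search over many genes in 6 libraries and are given as a description. All 6 of these genes had their highest level in CTRL replicate 3, where Csnk1d and Csnk1e were highest too: Epn2 had 40.4 CPM there and 27.4 to 33.1 CPM elsewhere, and Tpm3-rs7 89.1 CPM there and 39.3 to 56.8 CPM elsewhere. Csnk1d and Csnk1e ran alike with a Pearson r of 0.721 but a Spearman rho of 0.371 over the same 6 libraries. Csnk1g3 ran opposite to Csnk1d, with a Pearson r of -0.837 and a Spearman rho of -0.60.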

How the data were processed

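Gene expression was measured in 6 libraries of sorted splenic CLL cells, made with a 3' end kit with unique molecular identifiers (UMIs) and read as single reads, per the labels' protocols. The authors deposited raw counts, as whole numbers, for every gene. The submitters' processing notes list UMI-tools 1.1.1, Trimmomatic 0.36, STAR 2.7.3a, featureCounts 1.6.3 and the build GRCm38.p6, among others, with no role or order. The collapsing of UMIs and the strand setting are not given in the sources used here. Without collapsing, counts would not be independent molecules, so intervals cover counting error only, and without strand a gene and its antisense partner cannot be told apart. The table has 0 columns of no sample.

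The whole table was fitted in edgeR 4.0.16 (R 4.3.3). The filter filterByExpr (minimum count of 10, minimum total of 15) left 10067 genes. After TMM scaling, the groups were compared by the quasi-likelihood F test with robust, bias-adjusted dispersions, with Benjamini-Hochberg adjustment over all genes tested and a threshold of 0.05. The standard error (SE) was taken as the size of the log2 fold change over the square root of F. Log2 CPM uses a prior count of 2. Members were put in order of their mean log2 CPM over the same libraries. Neighbours in this order were compared within libraries by an exact sign-flip permutation test. The delta to epsilon ratio was compared by exact permutation of the group labels (20 assignments). All tests were two-sided. Shares carry 95% Wilson intervals. The procedure was tested on simulated data. Alternatives were DESeq2 1.42.0, limma-voom (limma 3.58.1), other scalings and filters, and each library left out.

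Gene models and coding sequences are from GENCODE M21 on GRCm38; coding sequences were aligned with Biopython 1.88. The members and gene lists were chosen with earlier results of these data known. Named are all members, the 2 genes of each other list with the smallest p and the 1 with the highest level, and the 3 genes most like Csnk1d and Csnk1e (with no Gm or Rik models, pseudogenes or immunoglobulin segments); others are marked where they stand. Some members of the lists are not reported here by name.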

Additional observations from a re-analysis of the deposited data

How the results depend on the processing

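No paired analysis was possible because the labels give no replicate numbers; those used here follow the order of deposit and pair nothing. No member was called under any of the 12 alternatives, and the direction was kept in 66 of 72 member values. Csnk1d ranged from -0.23 to -0.07 and Csnk1e from -0.45 to -0.09 on the log2 scale over these alternatives. Signs changed only with a library left out, where Csnk1a1 ranged from -0.0824 to 0.0588 (also -0.0087), Csnk1g1 from -0.23 to 0.01 (0.0082), Csnk1g2 from -0.02 to 0.13 (-0.0163 and -0.016) and Csnk1g3 from -0.03 to 0.24 (-0.0281). The 16 pathway genes kept their direction in 183 of 191 values, with a lowest adjusted p of 0.556; Per2 gave no value with a minimum count of 30. With a library left out, Vrk3 ranged from -0.0973 to 0.0926, Ddx3x from -0.2826 to 0.1083 and Ctnnb1 from -0.1098 to 0.0446. Without CTRL replicate 1, Per2 was -0.36 and the clock median -0.19; without CK1i replicate 2, Prkaca was 0.17. The count of all genes called was 3 with no filter, 8 with DESeq2, 0 with limma-voom and 0 to 1 with a library left out, in edgeR.

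With a library left out, the smallest exact permutation p of a neighbouring pair is above the threshold. The log2 differences ranged from 1.65 to 1.74 for Csnk1a1 over Csnk1d, from 0.20 to 0.30 for Csnk1d over Csnk1g2, from 0.46 to 0.598 for Csnk1g2 over Csnk1g3, from 0.54 to 0.77 for Csnk1g3 over Csnk1e and from 0.06 to 0.24 for Csnk1e over Csnk1g1. Per kilobase of the longest transcript, the differences were 1.54, 0.42 and 0.56 for Csnk1a1 over Csnk1d, Csnk1d over Csnk1g2 and Csnk1g2 over Csnk1g3. The difference was 1.32 for Csnk1e over Csnk1g1, and the adjusted exact permutation p was 0.0391 for all of these pairs. It was 0.184 for Csnk1g3 over Csnk1e (adjusted exact permutation p = 0.3438). Division by length shifts a pair by the same amount in every library. The pairs above Csnk1g3 kept an unadjusted exact permutation p of 0.0312. Their adjusted p passed the threshold only because the shift brought Csnk1e over Csnk1g1 to this same, smallest possible p. On that scale the shares moved to 17.3% for Csnk1d, 7.70% for Csnk1e and 3.08% for Csnk1g1. The log2 ratio of Csnk1d to Csnk1e differed between groups by -0.03 to 0.26 with a library left out, the lowest value (-0.025) without CK1i replicate 3. Depth limits Csnk1e and Csnk1g1 most, which had as few as 105 counts in a library.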
